A study of Rattus norvegicus with 30 samples.

Results

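The genes for major histocompatibility complex (MHC) class II antigen presentation were followed in healthy rat median nerve and in tissue that regrew inside a chitosan tube. The 4 genes were taken by Ensembl identifier from the 32545 rows of the count table, and all 4 were present and among the 16015 genes with enough counts to be tested: Cd74 (ENSRNOG00000018735), RT1-Da (ENSRNOG00000032844), RT1-Ba (ENSRNOG00000000451) and RT1-Bb (ENSRNOG00000032708). The table holds identifiers only, so the symbols are those given with the choice of genes.

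MHC class II molecules carry peptides from engulfed proteins to the cell surface, where CD4+ T cells read them. Each molecule is a pair of an alpha and a beta chain, and in the rat, whose MHC is called RT1, RT1.D and RT1.B are the classical class II molecules, counterparts of human HLA-DR and HLA-DQ. RT1-Da encodes the alpha chain of RT1.D, and RT1-Ba and RT1-Bb encode the alpha and beta chains of RT1.B. Cd74 encodes the invariant chain, which holds newly made alpha and beta pairs together, blocks their groove and guides them to the endosome. Macrophages, dendritic cells and B cells are the usual sources of these transcripts, and the transactivator CIITA drives the genes together through conserved promoter boxes.

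All animals were adult female Rattus norvegicus of genotype WT. The control was untreated, healthy median nerve (5 samples). In the other groups the median nerve, a nerve of the forelimb, was interrupted, and a chitosan tube of 10 mm spanned the gap of 8 mm between its ends. The tube was placed at once (immediate repair) or 3 months after the injury (delayed repair), and the tissue inside it was taken 7, 14 or 21 days later. Immediate repair had 4, 4 and 5 samples and delayed repair 5, 4 and 3 samples on those days. Whether each numbered replicate was a separate animal is not in the labels, so a p-value here measures only the spread between these samples, which may be technical. The tissue in the tube is newly grown and the control is uninjured nerve, so injury, tube and regrowth cannot be told apart in comparisons with control, and in bulk RNA fewer cells of a type and less RNA per cell cannot be told apart either.

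Poly(A) RNA sequencing gave 11958242 to 17334752 counts per library. Levels are in CPM, counts scaled to library size. They are compared between samples for each gene, never between genes, since gene length was not taken into account. The lowest count of any of the 4 genes in any library was 60, for RT1-Ba in control replicate 2. In 5 libraries RT1-Ba was low relative to RT1-Da, and they are described with the ratios. Delayed day 7 replicate 5 stood apart over the whole table: 9.34% of its counts came from 98 genes that were above 5 CPM in it and over 10 times higher than in each of the others, against at most 8 such genes in any other library. None of the 4 class II genes was among them, and each call reported here for delayed day 7 was also made without that library.

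The promoters of the chain genes are shown for reference. Whether they have a part in the shared rise against control was not tested. RefSeq (build GRCr8) held a promoter for all 4 symbols, each 250 bases before to 50 bases after the start, and places RT1-Ba and RT1-Bb next to each other on chromosome 20, with RT1-Da in the same class II stretch. The stretches below run from base -120 to base -31 relative to the start. They are RT1-Da at chr20:4515295-4515384 (plus strand), RT1-Ba at chr20:4576937-4577026 (plus strand) and RT1-Bb at chr20:4604149-4604238 (minus strand). Capitals mark GCAAC, a core of the X box, and CTGATTGG, the inverted CCAAT core of the Y box.
RT1-Da: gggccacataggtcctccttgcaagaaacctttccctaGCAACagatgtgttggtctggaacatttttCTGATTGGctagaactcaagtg
RT1-Ba: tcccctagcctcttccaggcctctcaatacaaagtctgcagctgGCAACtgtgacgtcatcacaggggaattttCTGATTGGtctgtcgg
RT1-Bb: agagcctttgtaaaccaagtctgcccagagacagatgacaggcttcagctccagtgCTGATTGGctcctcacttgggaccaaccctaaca

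CTGATTGG began at base -52 in RT1-Da, -46 in RT1-Ba and -64 in RT1-Bb, and GCAAC began at -82 in RT1-Da and -76 in RT1-Ba. The starts of the motifs were thus 30 bases apart in both alpha chain genes. The RT1-Bb promoter held no GCAAC in the bases read. Both motifs were chosen after reading these sequences, were searched on both strands and do not overlap each other. Of the 33469 promoters in the table, 35.1% held GCAAC and 3.5% held CTGATTGG. GCAAC followed by CTGATTGG at that spacing was found in 5 (0.0149%): RT1-Da, RT1-Ba, RT1-DOa, RT1-Ha and Stard7. The spacing was that of RT1-Da and RT1-Ba, so their place among the 5 was fixed in advance. The Cd74 promoter held GCAAC at base -70 and no CTGATTGG in the bases read. These matches describe letters and do not show binding.

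All 4 genes were higher than in healthy nerve on every day after either repair. Together they took 0.0582 ± 0.0154% of all counts in control nerve (SD, n = 5), 0.838 ± 0.384% at day 7 of immediate repair (n = 4) and 1.35 ± 0.53% at day 7 of delayed repair (n = 5). The share was 0.485 ± 0.230% and 0.443 ± 0.207% at day 14 (n = 4 each) and 0.452 ± 0.284% and 0.461 ± 0.144% at day 21 (n = 5 and n = 3), with immediate repair given first. The highest share of any library was 2.22%, in delayed day 7 replicate 2.

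Cd74, the invariant chain gene, measured 425, 413, 368, 337 and 657 CPM in control replicates 1 to 5. At day 7 it measured 4105, 7510, 8053 and 2786 CPM in the 4 immediate libraries and 9984, 13809, 6579, 7571 and 5359 CPM in the 5 delayed libraries. The lowest day 7 library thus stood above the highest control library by more than the whole range of the controls. At day 14 the values were 1892, 4917, 1960 and 2783 CPM after immediate and 1902, 2548, 1884 and 4338 CPM after delayed repair. At day 21 they were 1719, 1086, 3779, 5019 and 1620 CPM after immediate and 1870, 2995 and 3475 CPM after delayed repair. All 25 regenerated libraries lay above all 5 controls, while the libraries of the repairs overlapped on each day. The fold change against control was 12.8 at day 7 of immediate repair (log2 3.67, SE 0.45, edgeR adjusted p = 1.07e-07) and 19.7 at day 7 of delayed repair (log2 4.30, SE 0.45, edgeR adjusted p = 9.20e-09). At days 14 and 21 it was 6.56 and 6.01 after immediate and 6.06 and 6.32 after delayed repair (edgeR adjusted p between 9.87e-06 and 3.14e-05).

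RT1-Da, the alpha chain gene of RT1.D, measured 109, 88.2, 88.5, 92.6 and 186 CPM in the controls. It measured 1244, 2926, 2412 and 1123 CPM at day 7 of immediate repair and 2784, 4856, 2102, 3539 and 2242 CPM at day 7 of delayed repair. No day 7 library came near the controls, and the repairs overlapped in their middle range. At day 14 it measured 627, 1826, 845 and 981 CPM after immediate and 680, 835, 632 and 1486 CPM after delayed repair. At day 21 it measured 541, 370, 1203, 2091 and 539 CPM after immediate and 687, 909 and 1364 CPM after delayed repair. The day 21 immediate group was the widest, with a coefficient of variation of 75.3% against 36.9% in control nerve. Against control, RT1-Da rose 17.1-fold at day 7 of immediate repair (log2 4.09, SE 0.48, edgeR adjusted p = 5.98e-08) and 27.5-fold at day 7 of delayed repair (log2 4.78, SE 0.48, edgeR adjusted p = 5.73e-09). On the later days the rise was 9.49-fold and 8.42-fold after immediate and 8.06-fold and 8.75-fold after delayed repair (days 14 and 21 in that order, edgeR adjusted p of at most 8.72e-06).

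RT1-Ba, the alpha chain gene of RT1.B, had the widest spread of the 4 genes in control nerve, at day 7 of both repairs and at day 21 of delayed repair. In the controls it measured 13.2, 3.75, 12.0, 10.8 and 25.3 CPM. At day 7 of immediate repair it measured 51.9, 339, 105 and 25.9 CPM, a coefficient of variation of 109.6% (n = 4), and at day 7 of delayed repair 339, 624, 88.2, 675 and 463 CPM. Immediate day 7 replicate 4, the lowest regenerated library, lay just above control replicate 5. At day 14 it measured 75.7, 236, 159 and 115 CPM after immediate and 86.2, 110, 107 and 178 CPM after delayed repair. At day 21 it measured 83.5, 45.9, 140, 255 and 73.1 CPM after immediate and 81.1, 117 and 271 CPM after delayed repair. Groups of both later days overlapped widely. Its rise against control was 10.1-fold at day 7 of immediate repair (log2 3.33, SE 0.67, edgeR adjusted p = 0.000129), 11.3-fold at day 14 and 9.21-fold at day 21. After delayed repair it was 33.7-fold at day 7 (log2 5.08, SE 0.71, edgeR adjusted p = 1.06e-06), 9.27-fold at day 14 and 12.1-fold at day 21. A single library moved the size of this rise in a pair of comparisons: without immediate day 7 replicate 2 the log2 change at that day was 2.23 (edgeR adjusted p = 0.00273), and without delayed day 21 replicate 3 that of delayed day 21 went from 3.59 to 2.93 (edgeR adjusted p = 0.00305).

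RT1-Bb, the beta chain gene of RT1.B, measured 60.8, 42.7, 34.3, 53.6 and 66.7 CPM in the controls. It measured 557, 2032, 1131 and 920 CPM at day 7 of immediate repair and 2493, 3560, 1002, 1981 and 1426 CPM at day 7 of delayed repair. Every day 7 library was thus several times the highest control. At day 14 it measured 257, 641, 524 and 659 CPM after immediate and 270, 400, 432 and 1036 CPM after delayed repair. At day 21 it measured 429, 216, 873, 724 and 200.0 CPM after immediate and 389, 717 and 975 CPM after delayed repair. Of the 4 genes it had the largest fold change against control at day 7, 22.5 after immediate (log2 4.49, SE 0.52, edgeR adjusted p = 5.21e-08) and 40.5 after delayed repair (log2 5.34, SE 0.53, edgeR adjusted p = 4.28e-09). On days 14 and 21 it was 10.1 and 9.47 times control after immediate and 10.4 and 13.4 times control after delayed repair (edgeR adjusted p of at most 4.91e-06).

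**Figure D1:**
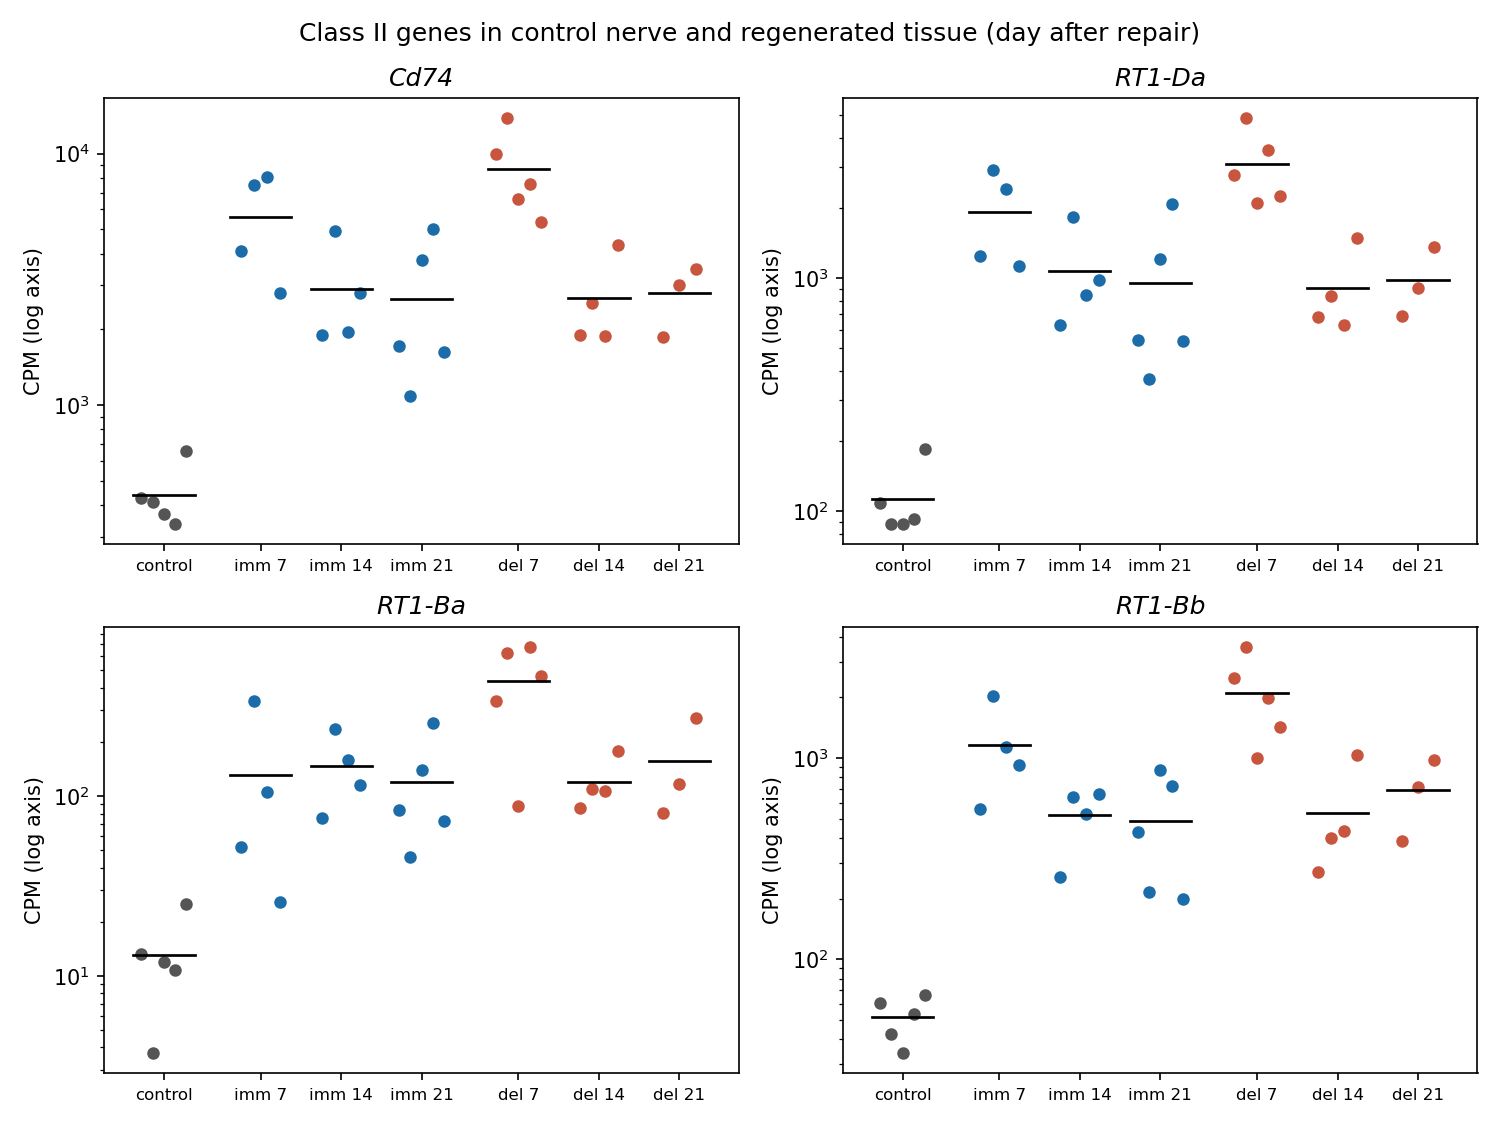
Level of each class II gene in CPM (log axis) in each library, by group: control, immediate repair (imm) and delayed repair (del) at 7, 14 or 21 days, with the group mean as a line. Every point of the 25 regenerated libraries lies above the 5 controls for each gene, and the day 7 groups reach highest. For RT1-Ba after immediate repair, only day 7 replicate 2 (339 CPM) lies above all day 14 and day 21 libraries of that repair.

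Against control, 4 of 4 genes were called higher (edgeR adjusted p under 0.05) in each of the 6 comparisons. Over all tested genes, 30.2%, 26.1% and 24.8% were called higher at days 7, 14 and 21 of immediate repair, and 31.5%, 26.2% and 23.1% of delayed repair. The 6 comparisons share the same 5 controls. The libraries of the groups did not overlap for 4 of 4 genes in each, where among all tested genes 24.3%, 24.6% and 20.4% lay wholly higher after immediate and 22.1%, 26.6% and 26.3% after delayed repair. The median log2 fold change of the 4 genes was 3.88, 3.29 and 3.14 after immediate and 4.93, 3.11 and 3.36 after delayed repair, beside medians over all tested genes between -0.077 and 0.019.

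The fall from day 7 to the later days was next compared within each repair. After delayed repair all 4 genes fell from day 7 to day 14: Cd74 fell by 1.70 on the log2 scale (SE 0.44, edgeR adjusted p = 0.00471), RT1-Da fell by 1.77 (SE 0.46, adjusted p = 0.00508), RT1-Ba fell by 1.86 (SE 0.67, adjusted p = 0.0331) and RT1-Bb fell by 1.97 (SE 0.49, adjusted p = 0.00413). Of all tested genes 16.6% were called lower. The call of RT1-Ba ended without delayed day 14 replicate 1, 2 or 3 or delayed day 7 replicate 2 or 4 (edgeR adjusted p between 0.0668 and 0.0848) and with limma voom and quality weights (log2 change -1.25, adjusted p = 0.105). For Cd74 and RT1-Da the lowest day 7 library stood above the highest day 14 library, as for 10.6% of all tested genes. For RT1-Ba and RT1-Bb the groups overlapped through delayed day 7 replicate 3, the lowest of its group.

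After immediate repair the estimates for the same step were smaller in size, that of RT1-Ba was not a fall, and none of the 4 genes passed the test. The log2 change from day 7 to day 14 was -0.96 for Cd74 (edgeR adjusted p = 0.0954), -0.85 for RT1-Da (adjusted p = 0.162), 0.17 for RT1-Ba (adjusted p = 0.872) and -1.16 for RT1-Bb (adjusted p = 0.0747). Unadjusted p was under 0.05 for 2 of the 4 and for 43.8% of all tested genes, and 33.7% of all tested genes were called in either direction. DESeq2 called RT1-Bb (adjusted p = 0.0441), and voom with quality weights called Cd74 and RT1-Da (adjusted p = 0.0201 and 0.0313). Without immediate day 14 replicate 2, which had the highest Cd74 of that group, Cd74 was called at a log2 change of -1.34 (edgeR adjusted p = 0.0295). Without immediate day 7 replicate 1, RT1-Bb was called at -1.39 (edgeR adjusted p = 0.0362).

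By day 21, Cd74 had fallen by 1.09 on the log2 scale from day 7 of immediate repair (SE 0.41, edgeR adjusted p = 0.0365) and RT1-Bb fell by 1.25 (SE 0.47, adjusted p = 0.0331), 2 of the 4 genes where 18.6% of all tested genes were called lower. RT1-Da changed by -1.02 (adjusted p = 0.0608) and RT1-Ba by -0.13 (adjusted p = 0.888), neither passing the test. No gene was called without immediate day 21 replicate 1, 2 or 5 or immediate day 7 replicate 2 or 3 (edgeR adjusted p of Cd74 0.0833 to 0.132 and of RT1-Bb 0.0549 to 0.174), nor when these 9 libraries were fitted alone (adjusted p = 0.121 and 0.0944). RT1-Da was called by DESeq2 and voom (adjusted p = 0.0368 and 0.00309), and by edgeR without immediate day 21 replicate 4, its highest library there, at a log2 change of -1.54 (adjusted p = 0.00418), or without immediate day 7 replicate 1 or 4 (adjusted p = 0.0409 and 0.0424). After delayed repair, from day 7 to day 21, Cd74 fell by 1.64 (edgeR adjusted p = 0.0155), RT1-Da fell by 1.65 (adjusted p = 0.0199) and RT1-Bb fell by 1.59 (adjusted p = 0.0328), where 11% of all tested genes were called lower. RT1-Ba changed by -1.48 (adjusted p = 0.133). The libraries of those days did not overlap for these 3 genes, nor for 8.66% of all tested genes that lay wholly lower. No gene was called without delayed day 21 replicate 1 or 2 (edgeR adjusted p between 0.0575 and 0.150 for the 3 genes), and RT1-Bb lost its call without delayed day 7 replicate 1 or 2 and in a fit of these libraries alone (adjusted p = 0.0587, 0.0839 and 0.0819).

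Between day 14 and day 21 no class II gene was called in either repair, with 0 of 4 at an unadjusted p under 0.05 in each, beside 7.54% of all tested genes after immediate and 3.87% after delayed repair. The log2 changes lay between -0.29 and -0.090 after immediate repair, where 0.256% of all tested genes were called, and between 0.059 and 0.38 after delayed repair, where 0% were called by edgeR. DESeq2 and voom called none of the 4 either. The 95% intervals were wide: for Cd74 they ran from -0.98 to 0.73 after immediate and from -0.91 to 1.03 after delayed repair.

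**Figure D2:**
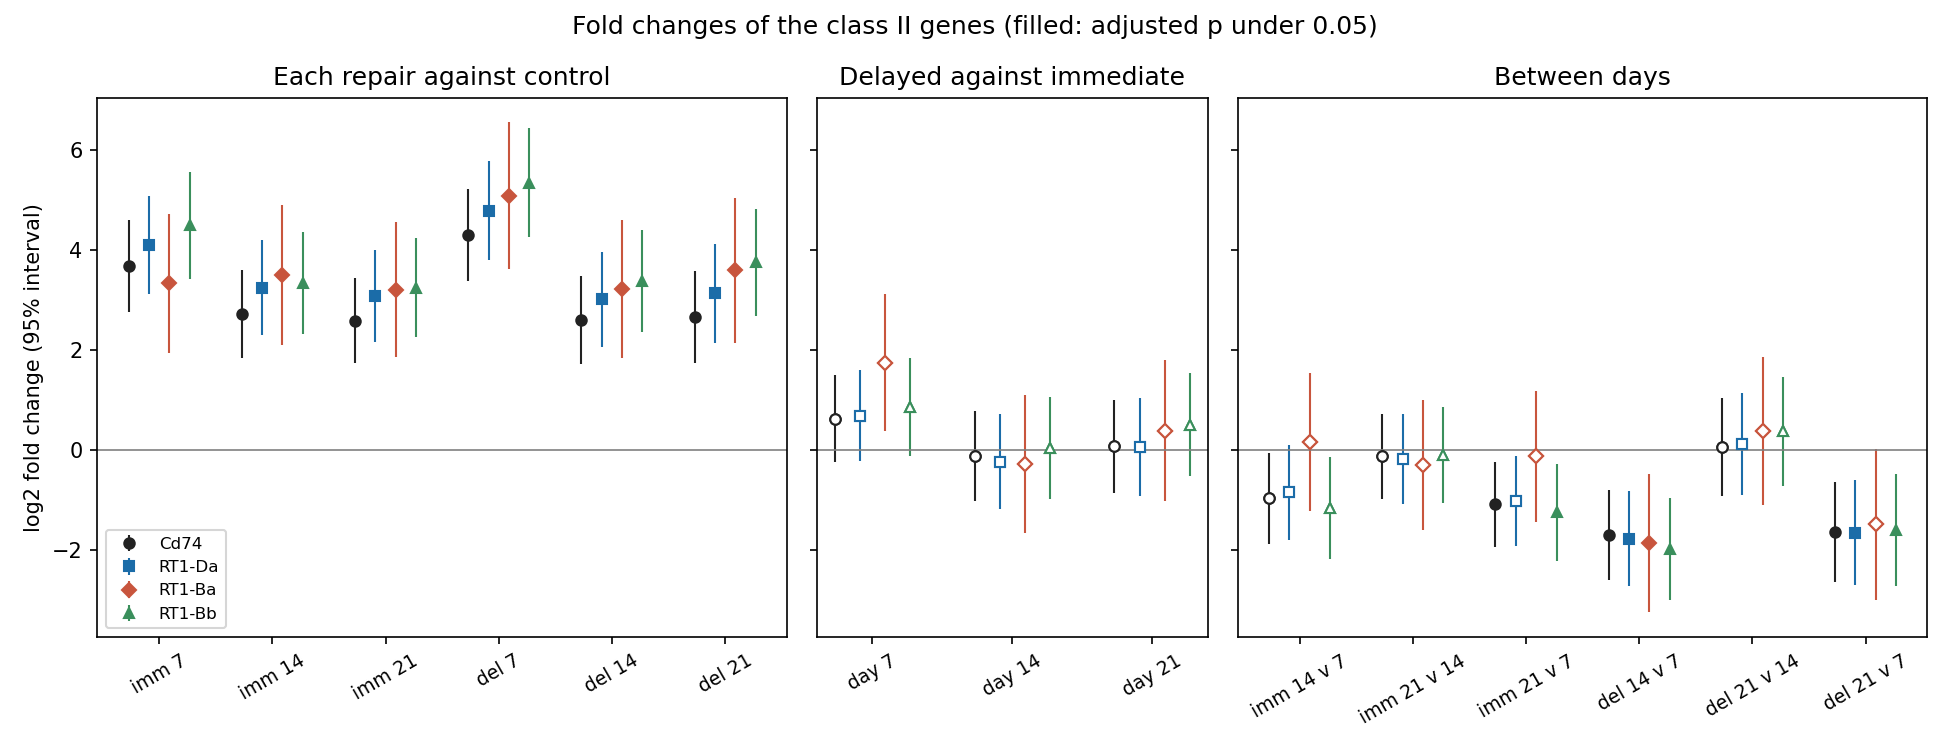
Log2 fold changes of the 4 genes with 95% intervals from the edgeR fit, for each repair against control, delayed against immediate repair at each day, and later against earlier days within a repair (imm, immediate; del, delayed; v, against). Filled marks passed an adjusted p of 0.05: all 24 against control, none between the repairs, and 9 falls from day 7.

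Delayed and immediate repair were then compared on each day, the question the design puts. None of the 4 genes was called on any day (edgeR adjusted p between 0.327 and 1), and DESeq2 and voom called none. At day 7 all 4 estimates were higher after delayed repair, by a log2 change of 0.63 for Cd74 (95% interval -0.24 to 1.49), 0.69 for RT1-Da (-0.22 to 1.60), 1.75 for RT1-Ba (0.38 to 3.12) and 0.85 for RT1-Bb (-0.13 to 1.83). The repairs overlapped for each gene on each day, while 0.375%, 1.9% and 4.21% of all tested genes did not overlap at days 7, 14 and 21. Of all tested genes 0.712% (114 genes) were called at day 7 by edgeR. That number moved with the method: 15 with relative log expression factors, 0 with voom and 341 with DESeq2. Before adjustment, RT1-Ba and no other class II gene passed 0.05 at that day, as did 8.44% of all tested genes. Its edgeR adjusted p was 0.327. Its log2 difference was 2.84 without immediate day 7 replicate 2 (edgeR adjusted p = 0.177) and 1.04 with voom and quality weights (adjusted p = 1.00). At day 14, where 0% of all tested genes were called, the log2 changes were -0.11 for Cd74 (-1.02 to 0.79), -0.24 for RT1-Da (-1.19 to 0.71), -0.28 for RT1-Ba (-1.66 to 1.09) and 0.040 for RT1-Bb (-0.97 to 1.05). At day 21, where 0.05% were called, they were 0.072 for Cd74 (-0.86 to 1.00), 0.056 for RT1-Da (-0.92 to 1.04), 0.39 for RT1-Ba (-1.02 to 1.80) and 0.51 for RT1-Bb (-0.53 to 1.54). Of the 4 genes, 0 had an unadjusted p under 0.05 at day 14 or day 21, beside 1.52% and 5.69% of all tested genes. With intervals this wide, these values do not show that the repairs were alike at days 14 and 21.

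The interaction of repair and day asked whether the time course itself depended on the repair. None of the 4 genes was called by edgeR, DESeq2 or voom, and 0% of all tested genes were called by edgeR. Of the 4, 0 passed 0.05 before adjustment, beside 5.94% of all tested genes. In the step from day 7 to day 14 taken alone, where 0% of all tested genes were called, RT1-Ba passed 0.05 before adjustment, as did 5.18% of all tested genes, and not after it (log2 difference between the repairs -2.03, edgeR adjusted p = 0.923). The called fall at day 14 after delayed repair and the uncalled one after immediate repair are therefore not shown to differ.

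The genes were then set against each other, first by correlation of their scaled levels across libraries and then by ratios of counts within a library. Unlike the correlations, a ratio of counts does not depend on library scaling. Across the 30 libraries the log2 CPM of Cd74 and RT1-Da correlated with a Pearson r of 0.992 (Spearman rho 0.988), and of Cd74 and RT1-Bb with 0.969. Cd74 and RT1-Ba correlated with an r of 0.877. These libraries include the control to day 7 contrast that all 4 genes share. After group means were removed, r was 0.955 for Cd74 and RT1-Da, 0.833 for RT1-Da and RT1-Bb and 0.806 for Cd74 and RT1-Bb. For RT1-Ba it was 0.811 with RT1-Da, 0.726 with RT1-Bb and 0.704 with Cd74. Libraries high in the invariant chain were thus high in RT1-Da within their group also.

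**Figure D3:**
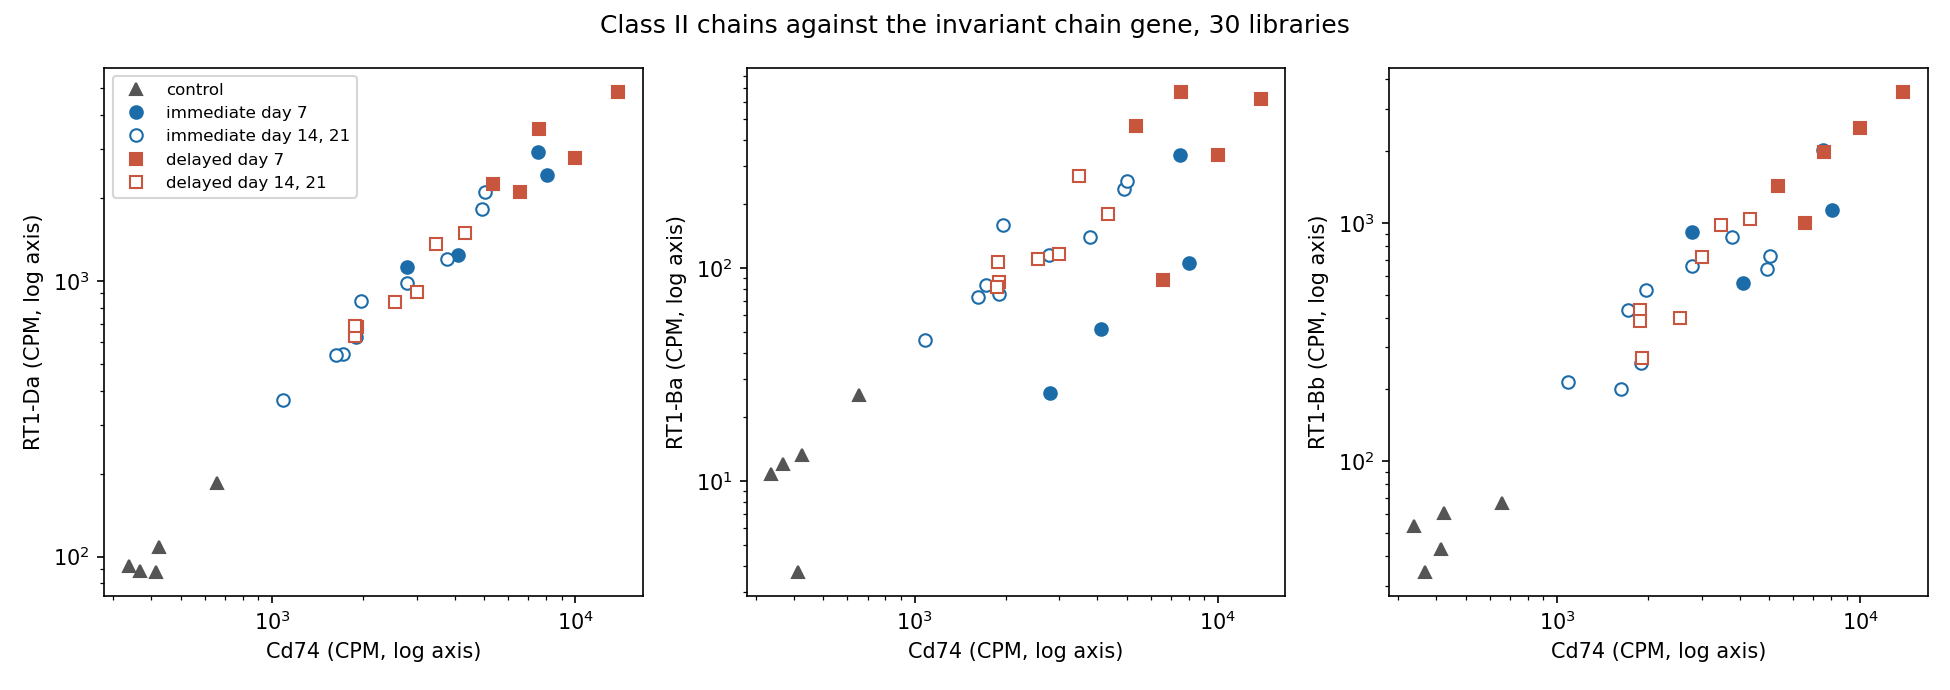
Level of each chain gene against Cd74 in the 30 libraries, both in CPM on log axes; triangles are control, circles immediate and squares delayed repair, filled at day 7 and open at days 14 and 21. RT1-Da follows Cd74 closely, while in the RT1-Ba panel 5 libraries (3 immediate day 7, 1 delayed day 7, 1 control) lie below the rest.

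RT1-Da counts per Cd74 count were higher in nearly all regenerated libraries than in control nerve. There were 0.256, 0.213, 0.241, 0.275 and 0.283 RT1-Da counts per Cd74 count in the controls, and 0.279 to 0.467 in the 25 regenerated libraries. The lowest of these, delayed day 7 replicate 1, was below control replicate 5, and all others were above every control. The mean log2 ratio exceeded that of control by 0.45, 0.55 and 0.44 at days 7, 14 and 21 of immediate and by 0.52, 0.43 and 0.48 of delayed repair. In the exact permutation test (two-sided, 45 ratio tests in all) p was 0.0159 for 4 of these comparisons, 0.00794 for immediate day 21 and 0.0357 for delayed day 21. The Benjamini-Hochberg adjusted p was 0.0794 for 5 and 0.134 for the sixth, so none passed. The smallest p that the group sizes allow is 0.0159 for 4 against 5, 0.00794 for 5 against 5 and 0.0357 for 3 against 5. None of the 45 ratio tests passed 0.05 after adjustment, and for those between the repairs the adjusted p was at least 0.153 (exact permutation test), which with groups of 3 to 5 does not show that the ratios were alike.

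RT1-Bb counts per Cd74 count had a mean log2 ratio above that of control by 0.79 at day 7 of immediate and by 0.99 at day 7 of delayed repair (exact permutation test, adjusted p = 0.214 and 0.0794), so the larger fold of RT1-Bb over Cd74 at day 7 was not called. RT1-Bb was not tested against RT1-Da.

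RT1-Ba did not keep a steady ratio to the other alpha chain gene. RT1-Ba counts per RT1-Da count lay between 0.116 and 0.207 in 25 libraries and between 0.0231 and 0.0436 in the other 5, with no library between. The 5 were control replicate 2 (0.0428), immediate day 7 replicates 1, 3 and 4 (0.0417, 0.0436 and 0.0231) and delayed day 7 replicate 3 (0.0420). The same 5 were lowest in RT1-Ba per Cd74 count, at 0.00913 to 0.0134 against 0.0311 or more in the rest. This ratio uses the same RT1-Ba counts, and Cd74 and RT1-Da correlated closely, so it is no separate evidence. RT1-Bb per Cd74 count did not set the same 5 apart. Immediate day 7 replicates 1 and 3 and delayed day 7 replicate 3 had 0.136, 0.140 and 0.152 RT1-Bb counts per Cd74 count. The day 7 libraries outside the low set had 0.250 to 0.271. Outside the low set, values of 0.123 to 0.157 were also found on days 14 and 21. They came from immediate day 14 replicates 1 and 2, immediate day 21 replicates 4 and 5 and delayed day 14 replicates 1 and 2. Within the low set, immediate day 7 replicate 4 had the highest value of all libraries, 0.330. Control replicate 2 had 0.103, within the range of the other controls (0.0933 to 0.159). RT1-Bb counts per RT1-Ba count were 10.7 to 11.4 in 4 of the 5 low libraries and 35.5 in immediate day 7 replicate 4, against 2.64 to 7.34 in the other 25. That ratio, too, rests on the RT1-Ba counts that set the 5 apart. The low libraries make up 3 of the 4 immediate and 1 of the 5 delayed libraries at day 7, beside the higher RT1-Ba estimate of delayed repair there. Their part in that estimate was not tested. The log2 ratio of RT1-Ba to RT1-Da was higher after delayed repair at day 7 by 1.36 (two-sided exact permutation p = 0.0476, adjusted p = 0.153 over 45 tests). Class II genes differ in sequence between rat haplotypes, and the labels give no strain. Whether haplotypes have a part in the low ratios was not tested.

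**Figure D4:**
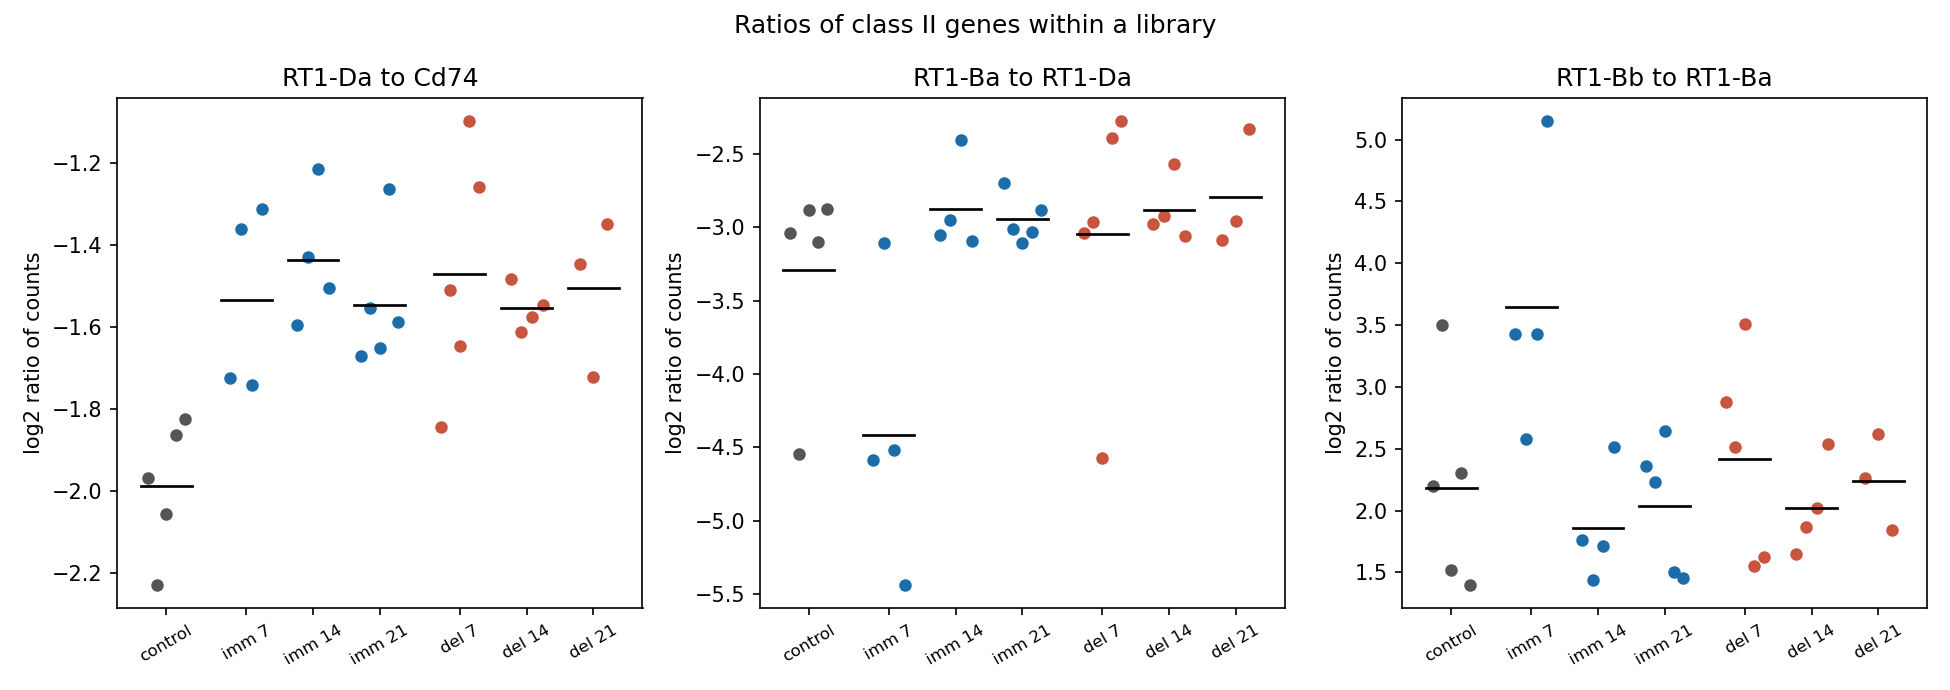
Log2 ratio of counts within each library for RT1-Da to Cd74, RT1-Ba to RT1-Da and RT1-Bb to RT1-Ba, by group (imm, immediate; del, delayed, with the day), with the group mean as a line. For RT1-Da to Cd74 the controls lie lowest but for delayed day 7 replicate 1, which lies below control replicate 5, and in the middle panel 5 libraries fall below the gap between 0.0436 and 0.116 RT1-Ba counts per RT1-Da count.

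Of 12469 other genes compared, all with a mean log2 CPM of 1 or more, those whose log2 CPM over the 30 libraries was most like the mean of the 4 class II genes were ENSRNOG00000006767 (Pearson r = 0.959) and ENSRNOG00000016451 (r = 0.951). The 30 libraries include the contrast of control with regenerated tissue. Over the 25 regenerated libraries alone r was 0.869 and 0.863 (ranks 1 and 4). After group means were removed it was 0.774 and 0.824 (ranks 7 and 2). ENSRNOG00000006767 measured 2.45 ± 0.64 CPM in control nerve (SD, n = 5), 116 ± 57.3 CPM at day 7 of immediate repair (n = 4) and 156 ± 62.3 CPM at day 7 of delayed repair (n = 5), and between 41.4 and 49.5 CPM on average in the 4 later groups. ENSRNOG00000016451 measured 7.56 ± 1.33, 21.8 ± 6.18 and 25.2 ± 4.49 CPM in the same 3 groups and 18.2 to 19.3 CPM on average in the later ones. No symbol could be paired with either.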

How the data were processed

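The authors deposited raw read counts per Ensembl gene, whole numbers in a single table of the 30 libraries, with replicates not pooled. Per the labels' protocols, libraries were non-directional and made from 400 ng of total RNA (integrity number above 6) by poly(T) capture, so overlapping genes on opposite strands cannot be told apart. DESeq2 1.38.3, featureCounts 1.5.0-p3 and HISAT2 2.0.5 are named in the submitters' processing notes without a role. Not given in the sources used here were the genome build, the annotation release and how reads shared by similar genes were counted. The class II genes have close relatives and many alleles, so their single values are uncertain to that extent, and how reads of other alleles were counted was not tested.

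The 4 genes and the lists were chosen with earlier results of these data known. Beside the 4 genes, the naming rule took the genes most like them by Pearson r, of which 2 are printed by identifier. Lists of pathway partners and of macrophage, dendritic, B, T, Schwann and other cell markers were set by symbol, but 0 of the 32545 identifiers matched the RefSeq table of gene names, so they were not analysed here. The tissue and its cell types were therefore not checked against markers.

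The counts were tested with edgeR 4.0.16 (R 4.3.3): filterByExpr by group (16015 genes kept; 8248 had 0 counts throughout), TMM scaling, 1 robust quasi-likelihood fit of 7 groups over 30 libraries, and Benjamini-Hochberg adjustment over all tested genes at 0.05. Standard errors came from the test statistic. Ratios within a library used counts plus 0.5 and exact permutation tests. Log2 CPM used a prior count of 2. The test was also run on simulated counts, but the outcome is not reported here and no statement rests on it. No pair of replicates agreed within sampling noise (lowest chi-square per gene 14.9 over 51 pairs). Alternatives were DESeq2 1.42.0, limma 3.58.1 voom with quality weights, relative log expression factors, no filter, a replicate block, only the groups compared, and each library left out in turn.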

Additional observations from a re-analysis of the deposited data

Results flagged for a closer look

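In groups of 4 or 5 libraries, a library was set apart where its gap to the nearest other exceeded Dixon's 95% limit. Of 54 such checks over the levels and ratios of the class II genes, 5 met it, where chance gives about 1 in 20 for a single check. The checks share genes and libraries, and both flags of control replicate 2 rest on the same RT1-Ba count. The count of 5 can therefore not be set against that rate. RT1-Da stood high in control replicate 5, at 186 CPM, against 88.2 to 109 CPM in the other controls. The log2 ratio of RT1-Da to Cd74 stood high in immediate day 21 replicate 4, at -1.26. Control replicate 2 stood low in the log2 ratio of RT1-Ba to Cd74, at -6.77, and of RT1-Ba to RT1-Da, at -4.55. Delayed day 7 replicate 3 stood low in the log2 ratio of RT1-Bb to Cd74, at -2.72. The last pair of libraries are among the 5 in which RT1-Ba was low relative to RT1-Da.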

How the results depend on the processing

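The 24 rises against control kept their direction and their call in all 364 refits (log2 changes 2.22 to 5.52, highest adjusted p 0.00348), and the 12 differences between the repairs were called in 0 of 172 refits. From day 7 to day 14 of immediate repair, where 0 genes were called, DESeq2 called 1, voom 2 and the fits leaving out a library 0 to 1. From day 7 to day 21 of immediate repair, with 2 called, fits leaving out a library called 0 to 3, the compared groups alone 0, and the replicate block 0 (adjusted p = 0.0546 for Cd74 and 0.0535 for RT1-Bb). The replicate block changed no other count. The labels do not say that a number marks a shared animal or day: 10 of 30 libraries had their closest library of another group under the same number, and the lowest correlation of same-numbered deviations was -0.66. From day 7 to day 21 of delayed repair, with 3 called, leaving out a library gave 0 to 3. Of the 45 ratio tests 0 were called, also with 2 added to each count or with a library left out, but exact tests of groups this small can hardly pass after adjustment, so this says nothing of stability.

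Uncalled log2 changes near 0 changed sign. Leaving out a library gave, for delayed against immediate at day 14, -0.45 to 0.27 (Cd74), -0.58 to 0.15 (RT1-Da), -0.54 to 0.044 (RT1-Ba) and -0.50 to 0.26 (RT1-Bb), and voom gave 0.17, 0.090 and 0.083 for Cd74, RT1-Da and RT1-Ba. At day 21 the ranges were -0.13 to 0.44, -0.25 to 0.57 and -0.27 to 0.87 for the same 3 genes. For day 21 against day 14 of immediate repair they were -0.49 to 0.26 (Cd74), -0.69 to 0.21 (RT1-Da), -0.78 to 0.034 (RT1-Ba) and -0.41 to 0.11 (RT1-Bb, 0.015 with the replicate block). For the same days of delayed repair they were -0.13 to 0.40, -0.19 to 0.46 and -0.28 to 0.69 for Cd74, RT1-Da and RT1-Ba, and voom gave -0.28, -0.24, -0.18 and -0.045 for the 4 genes. For RT1-Ba after immediate repair they were -0.17 to 1.27 for day 14 against day 7 (-0.30 with voom) and -0.61 to 0.97 for day 21 against day 7. The causes were not tested. Leaving a library out of delayed day 21 leaves 2 there. The parts of depth and of the spread between libraries in the width of the intervals were not tested.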

Other observations

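The RT1-Ba to RT1-Da ratio also had an upper end. The highest ratios of counts were 0.207 and 0.191 in delayed day 7 replicates 5 and 4, 0.199 in delayed day 21 replicate 3, 0.189 in immediate day 14 replicate 3 and 0.169 in delayed day 14 replicate 3, and the next was 0.155 in immediate day 21 replicate 1.

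For RT1-Bb per Cd74 count the widest gap between neighbouring libraries ran from 0.159 to 0.199, with 14 libraries below it and 16 above. Any set of values has a widest gap. This one took 0.32 of a log2 range of 1.82, against 1.41 of 3.16 for RT1-Ba to RT1-Da, so separate ranges are not shown. All 5 controls lay below it, as did libraries of immediate repair on each day and of delayed repair at days 7 and 14.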
